A study of Mus musculus with 18 samples.

Results

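The genes described here are 10 Adam genes of the mouse testis, whose products are membrane proteins of sperm and of the cells that form sperm: Adam1a, Adam2, Adam3, Adam5, Adam18, Adam24, Adam26a, Adam29, Adam30 and Adam32. They and the gene lists set beside them were chosen by name, with earlier results of these data known. Counts set beside all genes are therefore a description. Every probe annotated to the 10 genes was taken from the table of unnormalized intensities. This gave 15 probes for 9 of the 10 genes, among 45281 probes and 19057 named genes. No probe here carries the name Adam1a, which is not analysed here. Of the other genes, 8 had a probe that passed the detection filter and were tested, and Adam2 was not detected on any array. Transcript levels were measured with Illumina bead arrays on total RNA of whole testis from mice aged 12 weeks, all from a cross of FVB/N with C57/BL6, which the wild type mice share with the mutants. The 18 arrays form 4 groups: 5 arrays labelled Fshr mutant/Lhr null, called the double mutant, 5 Lhr null, 4 Fshr mutant and 4 wild type. Fshr encodes the receptor for follicle stimulating hormone on Sertoli cells, and Lhr, now Lhcgr, the receptor for luteinizing hormone on Leydig cells. The column headers write the Fshr allele as Fshr-CAM, and the sources used here do not give the meaning of that name, the promoter or the number of founder lines. The comparisons ask which testis transcripts differ without Lhr, which differ with the Fshr mutation, and whether it alters what is seen without Lhr.

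ADAM proteins carry a disintegrin and a metalloprotease domain. In the mouse, ADAM1a and ADAM2 pair in testicular germ cells, and this fertilin pair is needed for ADAM3 to reach the sperm surface. ADAM3, also called cyritestin, is needed in the mouse for sperm to pass into the oviduct and to bind the egg coat. ADAM3 is folded with the help of germ cell chaperones of the endoplasmic reticulum, and the other members are likewise expressed in testis.

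Between 15482 and 18950 probes were detected per array at a detection p-value under 0.01, with a median of 40 to 43 beads per probe, and the tests covered 10798 genes. Precision is limited by how many arrays there are. Whether the arrays of a group came from different animals is not stated in the labels, so p-values cover only the spread between samples, which may be technical. Levels are log2 intensities after background correction and quantile normalization. Values of single arrays stand in the order of their replicate numbers, differences with their standard error, and group means with the SD over arrays. A gene was called where its adjusted p in limma, over all genes tested, was under 0.05. In whole testis, fewer cells of a type and less RNA per cell cannot be told apart. Fshr, read with probe ILMN_1228881, checks the labels. In the library labelled Fshr mutant/Lhr null replicate 2 the Fshr level was 5.68, against 8.45 to 9.25 on the other double mutant arrays, 7.57 to 8.34 on Lhr null arrays, 8.44 to 8.74 on Fshr mutant arrays and 5.16 to 5.85 on wild type arrays. The other detected Fshr probe, ILMN_2932141, did not set this library apart: it had 5.66 there, against 5.44 to 6.24 on the other double mutant arrays, 7.89 to 8.49 on Lhr null arrays, 5.37 to 5.91 on Fshr mutant arrays and 5.7 to 6.36 on wild type arrays. On this probe the double mutant, Fshr mutant and wild type ranges overlap, so it cannot tell whether this library is like wild type. The mean level of 8 Leydig cell genes in the same library was 9.05, the highest in its group and inside the wild type range of 8.36 to 10.34. Lhr null replicate 1 also stands apart, with a mean level of 15 elongating spermatid genes of 11.45, the highest of its group. Calls of Adam genes that change without either array are given without it.

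Of the 15 probes, 10 on 8 genes passed the filter, which asked for detection on at least 4 arrays. Adam2, the fertilin partner, lies at chr14:66027322-66077851 (GRCm38.p6) and has 1 probe, ILMN_2739679. It was detected on 0 of 18 arrays, with deposited intensities of 45.2 to 58.6 and a lowest detection p-value of 0.172, so that this probe gives no level of Adam2. The other 4 probes detected on 0 arrays were ILMN_3004858 and ILMN_1244723 of Adam26a, ILMN_2746402 of Adam29 and ILMN_2439745 of Adam30. Each of these 3 genes had another probe detected on all 18 arrays. The probe ILMN_3004858 came nearest to detection, with a lowest detection p-value of 0.0139.

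**Figure D1:**
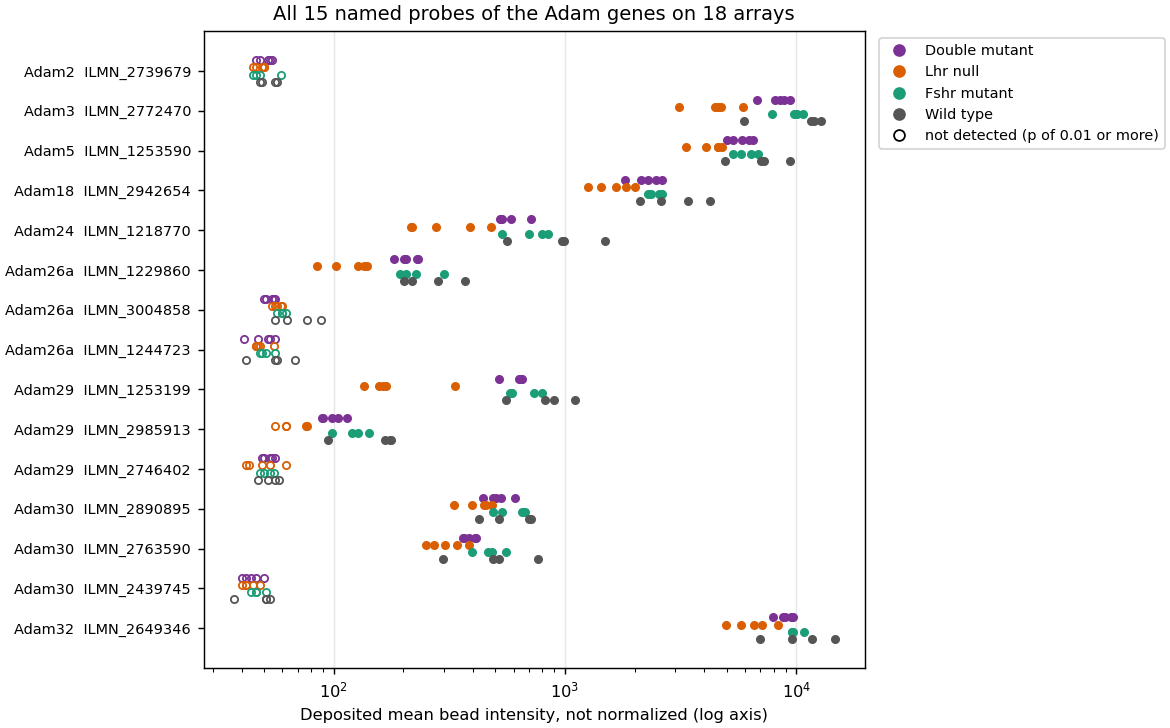
Deposited bead intensity (log axis, not normalized) of each of the 15 probes on the 18 arrays, with the 4 genotypes in colours and open circles for arrays on which the probe was not detected. The 5 probes detected on no array lie between 37.2 and 88.4, while Adam32 reaches 14690.5.

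The genes are not spread evenly over the genome. Of the 8 tested genes, 7 lie on chromosome 8 and Adam30 on chromosome 3, at chr3:98160634-98164169. Adam18 (chr8:24602246-24674755), Adam3 (chr8:24677232-24726377), Adam5 (chr8:24727093-24824369) and Adam32 (chr8:24836143-24948918) follow each other in a run of 347 kb with 0 other annotated protein-coding genes inside. Adam24 (chr8:40675077-40682199), Adam26a (chr8:43568273-43576707) and Adam29 (chr8:55870912-55906964) lie apart from this run and from each other.

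In Lhr null testis, 6 of the 8 tested Adam genes fell relative to wild type and 0 rose. Adam29, Adam24 and Adam26a fell most, by 5.26-fold, 3.26-fold and 2.78-fold. Adam3, Adam18 and Adam30 fell by less, and Adam5 and Adam32, 2 of the 4 genes of the run, were not called. Of all genes tested, 27.0% were called lower and 44.2% higher in Lhr null. The members' median difference was -0.6 log2, against 0.21 for all genes tested. Without Lhr null replicate 1, 7 members fell. With cyclic loess, with median scaling and with no normalization between arrays, all 8 tested members were lower and called in Lhr null. The 27.0% belongs to the main run, where 62% of all calls were higher. In these 3 runs 50.6%, 56.1% and 53.3% of all calls were higher, in the same order, so more of the calls were lower. In the double mutant, 7 of the 8 were higher than in Lhr null and 0 lower. Of all genes, 29.3% were called higher and 45.0% lower there. The median difference was 0.63 log2 for the members and -0.21 for all genes. Without the library labelled Fshr mutant/Lhr null replicate 2, and likewise without Lhr null replicate 1, all 8 tested members were called higher. Both comparisons share the Lhr null arrays.

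**Figure D2:**
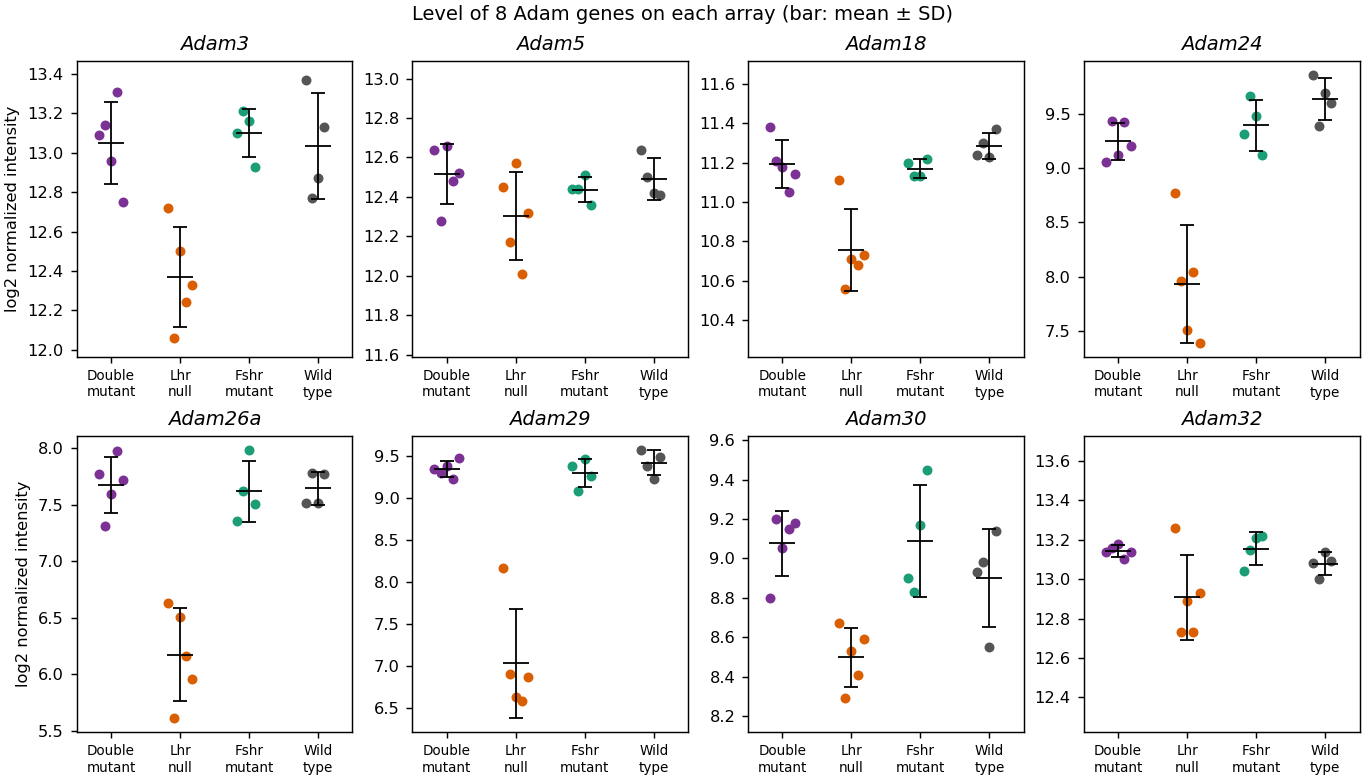
Log2 normalized intensity of the 8 tested Adam genes, 1 panel per gene and 1 point per array, with the mean and SD of each genotype as bars; the vertical axes differ between panels. Lhr null arrays lie lowest in Adam3, Adam24, Adam26a and Adam29 without overlap with any other genotype, while Adam5 and Adam32 overlap.

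Adam3 is the member whose product is needed for sperm to enter the oviduct. The log2 level of Adam3 was 13.09, 13.14, 12.96, 13.31 and 12.75 on the double mutant arrays, against 12.72, 12.06, 12.5, 12.24 and 12.33 on the Lhr null arrays. It was 13.1, 13.21, 13.16 and 12.93 on the Fshr mutant arrays and 13.37, 12.77, 12.87 and 13.13 on the wild type arrays. Every Lhr null array lay below every array of the other genotypes. Adam3 fell by 0.66 ± 0.15 log2 (SE) in Lhr null relative to wild type (adjusted p = 0.000553), which is 1.58-fold. In the double mutant it was 0.68 ± 0.14 log2 higher than in Lhr null (adjusted p = 0.000237). The nearest pair of arrays of these groups was 12.75 in the double mutant and 12.72 in Lhr null, closer than the SD of either group.

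Adam18, next to Adam3 in the run, encodes a further membrane protein made in testis. Adam18 had log2 levels of 11.38, 11.21, 11.18, 11.05 and 11.14 on the double mutant arrays, against 11.11, 10.56, 10.71, 10.68 and 10.73 on the Lhr null arrays. The Fshr mutant arrays had 11.2, 11.13, 11.13 and 11.22, and the wild type arrays 11.24, 11.3, 11.23 and 11.37. All Lhr null arrays were below all wild type arrays, and Lhr null replicate 1 reached into the double mutant range. Adam18 fell by 0.53 ± 0.1 log2 in Lhr null relative to wild type (adjusted p = 0.000123). It was 0.44 ± 0.09 log2 higher in the double mutant than in Lhr null (adjusted p = 0.000419).

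Adam5 and Adam32 complete the run on chromosome 8. On the double mutant arrays Adam5 had log2 levels of 12.64, 12.28, 12.66, 12.48 and 12.52, against 12.45, 12.17, 12.57, 12.01 and 12.32 on the Lhr null arrays. It was 12.44, 12.44, 12.51 and 12.36 on the Fshr mutant arrays and 12.64, 12.5, 12.42 and 12.41 on the wild type arrays. The 4 groups overlapped. The Adam5 difference of Lhr null from wild type was -0.19 log2, with a 95% interval of -0.42 to 0.05 (adjusted p = 0.141). Between the double mutant and Lhr null the difference was 0.21 log2, with an interval of -0.01 to 0.43 (adjusted p = 0.0737), and 0.27 log2 (adjusted p = 0.0274) without the library labelled Fshr mutant/Lhr null replicate 2. It was 0.25 log2 without Lhr null replicate 1 (adjusted p = 0.0448) and 0.28 log2 without Lhr null replicate 3 (adjusted p = 0.0223), and without replicate 3 Adam5 was also called lower in Lhr null than in wild type, at -0.25 log2 (adjusted p = 0.0486).

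The log2 level of Adam32 was 13.14, 13.16, 13.18, 13.1 and 13.14 on the double mutant arrays, against 13.26, 12.73, 12.89, 12.73 and 12.93 on the Lhr null arrays. The Fshr mutant arrays had 13.04, 13.15, 13.21 and 13.22, and the wild type arrays 13.08, 13.0, 13.14 and 13.09. The Adam32 level of 13.26 on Lhr null replicate 1 was the highest of all 18 arrays, while the other Lhr null arrays lay below all others. The difference of Lhr null from wild type was -0.17 log2, with an interval of -0.37 to 0.03 (adjusted p = 0.125), and -0.26 log2 (adjusted p = 0.00562) without that array. Adam32 was 0.23 ± 0.09 log2 higher in the double mutant than in Lhr null (adjusted p = 0.0275), a call that is lost without any 1 of 3 arrays. The adjusted p was 0.0546 without the library labelled Fshr mutant/Lhr null replicate 3, 0.0788 without Lhr null replicate 2 and 0.0758 without Lhr null replicate 4, with differences of 0.22, 0.19 and 0.19 log2. With median scaling the difference of Lhr null from wild type was -0.71 log2 for Adam5 and -0.67 log2 for Adam32, and both were called. The scaling of the arrays moved both differences by more than their size in the main analysis.

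Adam24 encodes testase 1 and Adam26a testase 3, members that keep a protease active site. Adam24 had log2 levels of 9.06, 9.43, 9.12, 9.42 and 9.2 on the double mutant arrays, against 8.77, 7.96, 7.51, 8.04 and 7.39 on the Lhr null arrays. It was 9.31, 9.66, 9.48 and 9.12 on the Fshr mutant arrays and 9.86, 9.39, 9.69 and 9.6 on the wild type arrays. All Lhr null arrays were below all arrays of the other genotypes. Adam24 fell by 1.7 ± 0.21 log2 in Lhr null relative to wild type (adjusted p = 1.09e-06). It was 1.31 ± 0.2 log2, or 2.48-fold, higher in the double mutant than in Lhr null (adjusted p = 9.49e-06).

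On the double mutant arrays Adam26a had log2 levels of 7.77, 7.31, 7.6, 7.98 and 7.72, against 6.63, 5.61, 6.51, 6.16 and 5.96 on the Lhr null arrays. The Fshr mutant arrays had 7.36, 7.62, 7.99 and 7.51, and the wild type arrays 7.52, 7.78, 7.52 and 7.77. Again no Lhr null array reached any other genotype. Adam26a fell by 1.47 ± 0.18 log2 in Lhr null relative to wild type (adjusted p = 1.45e-06) and was 1.5 ± 0.17 log2, or 2.83-fold, higher in the double mutant than in Lhr null (adjusted p = 5.03e-07). Adam26b, a close copy of Adam26a, differed from wild type by -1.75 log2 in Lhr null, and whether the probes tell the copies apart was not tested.

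With the brightest probe per gene, Adam29 showed the widest change among the 8 tested genes. The log2 level of Adam29 was 9.35, 9.3, 9.39, 9.23 and 9.48 on the double mutant arrays, against 8.17, 6.9, 6.62, 6.58 and 6.86 on the Lhr null arrays. It was 9.38, 9.09, 9.47 and 9.27 on the Fshr mutant arrays and 9.58, 9.39, 9.23 and 9.49 on the wild type arrays. The Lhr null arrays did not overlap any other group, and Lhr null replicate 1 lay above the other Lhr null arrays, which spanned 6.58 to 6.9. Adam29 fell by 2.4 ± 0.23 log2 in Lhr null relative to wild type (adjusted p = 7.02e-08), and by 2.69 log2 without that array. It was 2.32 ± 0.21 log2, or 5.01-fold, higher in the double mutant than in Lhr null (adjusted p = 3.76e-08).

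A dimmer probe of Adam29, ILMN_2985913, was detected on 5 of 5 double mutant, 2 of 5 Lhr null, 4 of 4 Fshr mutant and 4 of 4 wild type arrays. Its log2 level was 5.94, 5.92, 6.22, 6.7 and 6.43 on the double mutant arrays, against 5.36, 4.81, 4.64, 5.13 and 4.85 on the Lhr null arrays. It was 6.68, 6.45, 6.5 and 6.19 on the Fshr mutant arrays and 7.16, 6.32, 6.29 and 6.88 on the wild type arrays. In a fit of all probes past the filter it fell by 1.7 ± 0.2 log2 in Lhr null relative to wild type (adjusted p = 7.5e-07) and was 1.28 ± 0.19 log2 higher in the double mutant than in Lhr null (adjusted p = 8.38e-06). Both probes gave the same direction, with the smaller difference on the dimmer probe. Differences of dim probes are understated on this scale.

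Adam30 is the tested member outside chromosome 8. Adam30 had log2 levels of 8.8, 9.2, 9.05, 9.15 and 9.18 on the double mutant arrays, against 8.67, 8.29, 8.53, 8.41 and 8.59 on the Lhr null arrays. The Fshr mutant arrays had 8.9, 8.83, 9.17 and 9.45, and the wild type arrays 8.93, 8.98, 8.55 and 9.14. The Lhr null arrays lay below the double mutant and Fshr mutant arrays and overlapped the wild type arrays through the wild type value of 8.55. Adam30 fell by 0.4 ± 0.14 log2 in Lhr null relative to wild type (adjusted p = 0.0157), a call that is lost without wild type replicate 4 (adjusted p = 0.065). It was 0.58 ± 0.13 log2 higher in the double mutant than in Lhr null (adjusted p = 7e-04), and 0.31 log2 with no normalization between arrays (adjusted p = 0.136).

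The other detected probe of Adam30, ILMN_2763590, had log2 levels of 8.5, 8.61, 8.64, 8.71 and 8.82 on the double mutant arrays, against 8.21, 7.78, 7.92, 8.01 and 7.96 on the Lhr null arrays. It had 8.67, 8.52, 8.95 and 8.97 on the Fshr mutant arrays and 8.84, 8.43, 8.67 and 8.71 on the wild type arrays. Here the Lhr null arrays lay below all others. The fall in Lhr null relative to wild type was larger on this probe, at 1.61-fold, against 1.32-fold on the brighter probe (difference -0.69 ± 0.12 log2, adjusted p = 4.85e-05). The double mutant was 0.68 ± 0.11 log2 higher than Lhr null (adjusted p = 2.58e-05).

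The sizes of these changes differed between members. The difference between a pair of genes was taken within each array, so that a shift of a whole array cancels, and compared between groups with a two-sided exact permutation test, adjusted over the 28 pairs. This test was chosen after the levels were seen. Between Lhr null and wild type, 20 of 28 pairs differed in their change, and between the double mutant and Lhr null, 21 of 28. How often pairs of other genes differ was not examined, so these counts do not set the Adam genes apart from other genes. The smallest p these groups allow is 0.00794 in both comparisons. Between Lhr null and wild type, Adam29 changed by 2.21 log2 more than Adam5 (adjusted p = 0.0234). It changed by 0.69 log2 more than Adam24 (adjusted p = 0.0234) and by 0.92 more than Adam26a (adjusted p = 0.0333). These gaps were read with the brighter Adam29 probe. The dimmer one, ILMN_2985913, fell by 1.7 log2, as did Adam24, so the gap to Adam24 was not seen on it. A dim probe may understate its fall. Adam26a was dim on the Lhr null arrays, at 5.61 to 6.63 log2, where the lowest detected levels were 5.12 to 5.41. Its fall may be understated there, and its gap to Adam29 overstated. Adam24 and Adam26a did not separate, with a difference between their changes of -0.23 log2 (adjusted p = 0.519), and neither did Adam3 and Adam18, at -0.13 log2 (adjusted p = 0.41). Within the run, Adam3 fell more than Adam5, with a difference between their changes of -0.48 log2 (adjusted p = 0.0234), while Adam5 and Adam32 differed by -0.02 log2 (adjusted p = 0.897).

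**Figure D3:**
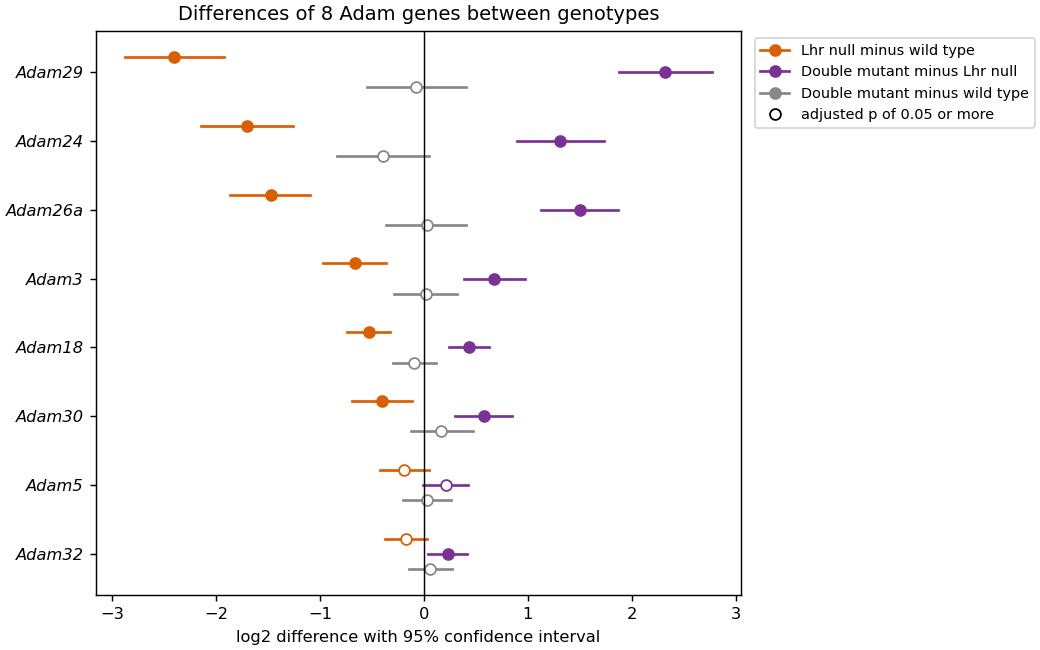
Log2 difference with its 95% interval for the 8 tested Adam genes in Lhr null minus wild type, double mutant minus Lhr null and double mutant minus wild type; open circles mark an adjusted p of 0.05 or more. Adam29 has -2.4 in Lhr null minus wild type and 2.32 in double mutant minus Lhr null, and no gene is called in double mutant minus wild type.

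The double mutant did not differ from wild type by the test in any of the 8 genes, where 1.28% of all genes were called. The differences ranged from -0.39 log2 for Adam24, with a 95% interval of -0.83 to 0.05, to 0.17 log2 for Adam30, with an interval of -0.12 to 0.47. For Adam29 the difference was -0.07 log2, with an interval of -0.55 to 0.41. The dimmer Adam29 probe, ILMN_2985913, gave -0.42 log2 in the limma fit of all probes, with an interval of -0.84 to 0 (adjusted p = 0.299). For Adam3 the difference was 0.02 log2, with an interval of -0.29 to 0.32. These intervals leave room for changes of that size. Against the Fshr mutant, 0 of 8 genes were called in the double mutant and 0.0278% of all genes, with differences from -0.15 to 0.08 log2.

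The Fshr mutation with Lhr present gave 0 calls in the 8 genes in limma, with 0 members at an unadjusted p under 0.05. Of all genes tested, 0% were called and 437 had an unadjusted p under 0.05. The differences of the Fshr mutant from wild type ranged from -0.24 log2 for Adam24, with an interval of -0.7 to 0.22, to 0.19 log2 for Adam30, with an interval of -0.12 to 0.5. In Adam18 the Fshr mutant arrays, at 11.13 to 11.22, lay just below the wild type arrays, at 11.23 to 11.37, with a difference of -0.12 log2 and an adjusted p of 1. The interaction sets the double mutant minus Lhr null difference against the Fshr mutant minus wild type difference. It was called in 5 of 8 genes, with 23.2% of all genes called in that direction. It was 2.44 ± 0.32 log2 for Adam29 (adjusted p = 9.47e-06), 1.56 ± 0.29 for Adam24 (adjusted p = 0.00023), 1.53 ± 0.26 for Adam26a (adjusted p = 9.26e-05), 0.61 ± 0.21 for Adam3 (adjusted p = 0.0161) and 0.55 ± 0.14 for Adam18 (adjusted p = 0.00258). With the dimmer Adam29 probe it was 1.49 log2 (adjusted p = 0.000262). For Adam30 it was 0.39 log2 (adjusted p = 0.0961) with the brighter probe and 0.56 log2 (adjusted p = 0.00762) with the other detected probe. It was 0.27 log2 for Adam5 (adjusted p = 0.15) and 0.16 log2 for Adam32 (adjusted p = 0.336).

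The order of the genotypes was read per gene. Lhr null had the lowest group mean in all 8 tested genes. Over all genes, 27.0% were called lower in Lhr null than in wild type, and how many had Lhr null lowest was not counted. Adam29 averaged 9.35 ± 0.09 in the double mutant and 7.03 ± 0.65 in Lhr null (SD, n = 5 each), against 9.3 ± 0.16 in the Fshr mutant and 9.42 ± 0.15 in wild type (SD, n = 4 each), and the higher 3 means lay within the spread of their arrays. The same held for Adam26a, with 7.67 ± 0.25 in the double mutant, 6.17 ± 0.41 in Lhr null, 7.62 ± 0.27 in the Fshr mutant and 7.65 ± 0.15 in wild type. Adam24 averaged 9.25 ± 0.17 in the double mutant, 7.93 ± 0.54 in Lhr null, 9.39 ± 0.23 in the Fshr mutant and 9.64 ± 0.2 in wild type. For Adam3 the means were 13.05 ± 0.21 in the double mutant, 12.37 ± 0.25 in Lhr null, 13.1 ± 0.12 in the Fshr mutant and 13.03 ± 0.27 in wild type. Adam18 averaged 11.19 ± 0.12 in the double mutant, 10.76 ± 0.21 in Lhr null, 11.17 ± 0.05 in the Fshr mutant and 11.29 ± 0.07 in wild type. Adam30 averaged 9.08 ± 0.16 in the double mutant, 8.5 ± 0.15 in Lhr null, 9.09 ± 0.28 in the Fshr mutant and 8.9 ± 0.25 in wild type. In these 4 genes too the groups above Lhr null were not separated by the test. In Adam5 the means were 12.52 ± 0.16 in the double mutant, 12.31 ± 0.22 in Lhr null, 12.44 ± 0.06 in the Fshr mutant and 12.49 ± 0.1 in wild type, and in Adam32 they were 13.14 ± 0.03, 12.91 ± 0.22, 13.16 ± 0.08 and 13.08 ± 0.06 in the same order. In both genes Lhr null and its nearest neighbour lay within the SD of the Lhr null arrays.

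Adam genes outside the set were read for comparison. Of the other 14 Adam genes with a known role or expression in reproduction, 11 had a named probe, and 8 of these were tested. Adam7, Adam25 and Adam34 were detected on 0 arrays; ADAM7 is known from the epididymis. All 8 tested genes fell in Lhr null relative to wild type and all 8 were higher in the double mutant than in Lhr null, with median differences of -2.03 and 1.77 log2. Both counts were also 8 without Lhr null replicate 1 and without the library labelled Fshr mutant/Lhr null replicate 2. The shares over all genes tested were 27.0% called lower in Lhr null and 29.3% called higher in the double mutant than in Lhr null. Adam21 had a mean log2 level of 9.56 ± 0.18 in the double mutant and 7.21 ± 0.52 in Lhr null (SD, n = 5 each), against 9.78 ± 0.17 in wild type (SD, n = 4), and fell by 2.57 ± 0.2 log2 in Lhr null (adjusted p = 9.15e-09). The difference of Lhr null from wild type was -2.52 ± 0.3 log2 for Adam4, -2.41 ± 0.22 for Adam6a, -2.13 ± 0.19 for Adam6b, detected on 1 of 5 Lhr null arrays, and -1.94 ± 0.19 for Adam39, all called. ADAM6 pairs with fertilin and ADAM3 complexes on mouse sperm, and whether the probes of its copies Adam6a and Adam6b tell them apart was not tested. Adam1b, the close copy of the unmeasured Adam1a, fell by 0.51 ± 0.1 log2 in Lhr null (adjusted p = 0.000198), was 0.98 ± 0.1 log2 higher in the double mutant than in Lhr null and 0.47 log2 higher in the double mutant than in wild type (adjusted p = 0.0306). With median scaling that last difference was 0.26 log2 (adjusted p = 0.378).

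Of 13 Adam genes of broad expression, 6 were tested. In Lhr null 2 fell and 1 rose relative to wild type, where 27.0% of all genes were called lower and 44.2% higher, and the median difference was -0.15 log2. The share that fell is near that of all genes. Adam23 fell by 1.09 ± 0.21 log2 (adjusted p = 0.000161) and also differed by -0.94 log2 between the double mutant and wild type (adjusted p = 0.0362). Adam11, detected on 2 of 5 Lhr null arrays, fell by 0.84 ± 0.16 log2. Adam17, which encodes the protease that releases tumour necrosis factor from cells, rose by 0.66 ± 0.15 log2 (adjusted p = 0.000687) and differed by -0.82 ± 0.14 log2 between the double mutant and Lhr null. The difference between these lists was not tested.

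**Figure D4:**
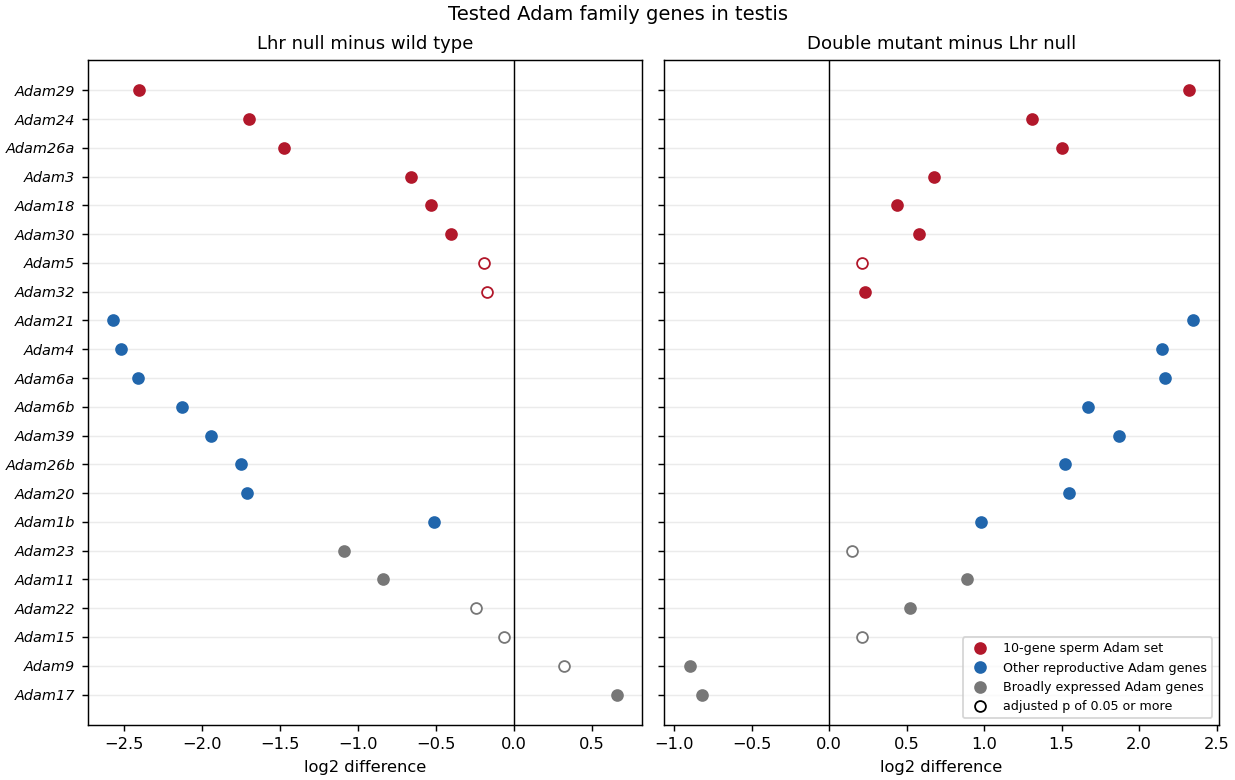
Log2 difference of every tested Adam gene, in Lhr null minus wild type (left) and in double mutant minus Lhr null (right), for the 8 tested genes of the set, 8 other reproductive and 6 broadly expressed Adam genes; open circles mark an adjusted p of 0.05 or more. All 8 other reproductive genes are called below 0 on the left and above 0 on the right, and Adam17 lies at 0.66 on the left.

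Promoter sequence was taken from RefSeq (GRCm38.p6) as the 250 bases before the annotated gene start, and 2 of the 10 genes, Adam1a and Adam29, matched an entry. The Adam29 window (chr8:55906965-55907214, minus strand) is shown because Adam29 changed most among the measured members with the brightest probe per gene. The windows of Adam21 (chr12:81568475-81568724, minus strand) and Adam6a (chr12:113543658-113543907, plus strand) are shown beside it, as other Adam genes whose change was as large, and were picked after their values were seen. Each reads 5′ to 3′, with matches on either strand in capitals. The motifs searched were the TATA box letters TATAAA, the CCAAT box letters CCAAT, and 2 forms of the cAMP response element, the short form TGACG and the full form TGACGTCA, which holds the short form.
Adam29: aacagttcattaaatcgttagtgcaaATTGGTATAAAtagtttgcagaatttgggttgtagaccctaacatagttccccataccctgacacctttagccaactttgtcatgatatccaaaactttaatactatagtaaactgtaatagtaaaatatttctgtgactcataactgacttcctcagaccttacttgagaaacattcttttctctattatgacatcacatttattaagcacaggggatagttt
Adam21: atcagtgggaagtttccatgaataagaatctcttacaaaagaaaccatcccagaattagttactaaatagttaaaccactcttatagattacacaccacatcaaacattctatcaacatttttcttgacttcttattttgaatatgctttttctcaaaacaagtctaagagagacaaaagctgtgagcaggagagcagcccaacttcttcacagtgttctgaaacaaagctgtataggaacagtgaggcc
Adam6a: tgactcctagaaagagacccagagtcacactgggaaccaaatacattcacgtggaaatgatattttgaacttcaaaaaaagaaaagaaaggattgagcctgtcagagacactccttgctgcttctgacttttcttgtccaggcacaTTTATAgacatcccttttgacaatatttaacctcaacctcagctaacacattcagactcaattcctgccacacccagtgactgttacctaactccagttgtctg
The Adam29 window holds TATAAA beginning 219 bases before the start and, directly upstream without overlap, CCAAT on the minus strand beginning at 224. The Adam6a window holds TATAAA on the minus strand beginning at 104, and the Adam21 window has no match to these letters. Among 32851 promoter windows of this length, 12.4% hold the TATA box letters, 33.8% the CCAAT box letters, 17.8% the short form and 1.55% the full form of the cAMP response element. These matches describe the letters only.

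Transcripts of genes whose proteins help ADAM3 mature or interact with it changed in both directions. Of 17 genes listed, 14 were tested. In Lhr null 7 fell and 6 rose relative to wild type, where 27.0% of all genes were called lower and 44.2% higher, so that the share that rose is near that of all genes. In the double mutant 6 were higher and 4 lower than in Lhr null, where 29.3% of all genes were called higher and 45.0% lower. The count that rose in Lhr null was 3 with cyclic loess, 3 with median scaling and 1 with no normalization between arrays. Prss55, a serine protease of sperm, averaged 11.61 ± 0.17 log2 in the double mutant and 8.52 ± 1.02 in Lhr null (SD, n = 5 each), against 11.6 ± 0.1 in wild type (SD, n = 4), and fell by 3.08 ± 0.34 log2 in Lhr null (adjusted p = 3.25e-07). Calr3, a germ cell calreticulin that acts on ADAM3, fell by 2.83 ± 0.35 log2 (adjusted p = 1.11e-06). Prss37, needed for ADAM3 to mature in the mouse, fell by 2.72 ± 0.29 log2 with detection on 2 of 5 Lhr null arrays. Pdilt, a disulfide isomerase-like chaperone of germ cells, fell by 1.5 ± 0.18 log2. Tex101, a membrane-anchored protein of germ cells needed for ADAM3 on sperm, rose by 1.79 ± 0.12 log2 in Lhr null (adjusted p = 2.66e-09) and also rose with each of the 3 other scalings, by 1.5 to 1.52 log2.

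Other genes for proteins of the sperm surface and acrosome also fell in Lhr null. Of 17 listed, 13 were tested, of which 13 fell in Lhr null and 12 were higher in the double mutant than in Lhr null, with medians of -1.59 and 1.26 log2. Among all genes tested, 27.0% were called lower in Lhr null and 29.3% higher in the double mutant than in Lhr null. Llcfc1, needed for sperm and egg to fuse, fell by 2.19 ± 0.21 log2 in Lhr null (adjusted p = 7.11e-08). The difference of Lhr null from wild type was -1.91 ± 0.26 log2 for the acrosomal protein gene Zp3r, -1.91 ± 0.23 for Izumo2, -1.88 ± 0.32 for Izumo3, detected on 2 of 5 Lhr null arrays, and -1.84 ± 0.25 for the hyaluronidase gene Hyal5, all called.

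Markers of the cells in the testis moved between the same groups. The 12 round spermatid genes tested, of 13 listed, and the 15 elongating spermatid genes, of 18 listed, all fell in Lhr null, with medians of -1.21 and -2.71 log2, and all were higher in the double mutant than in Lhr null. Among all genes tested, 27.0% were called lower in Lhr null. In the double mutant 29.3% of them were called above their Lhr null level. With cyclic loess 14 of the 15 elongating spermatid genes fell. Their mean level was 12.65 to 12.77 log2 on the double mutant arrays, 9.57 to 11.45 on Lhr null, 12.71 to 12.8 on Fshr mutant and 12.75 to 12.8 on wild type arrays. The mean of the round spermatid genes was 11.66 to 11.86 on the double mutant arrays, 10.13 to 11.14 on Lhr null, 11.64 to 11.79 on Fshr mutant and 11.59 to 11.79 on wild type arrays. The mean of the 8 Adam genes was 10.63 to 10.71 on the double mutant arrays, 9.53 to 10.22 on Lhr null, 10.59 to 10.77 on Fshr mutant and 10.58 to 10.78 on wild type arrays. In all 3 means Lhr null replicate 1 was the highest of its group, and no Lhr null array reached another genotype. Of 12 spermatocyte genes 6 rose and 2 fell in Lhr null. The share that rose is near the 44.2% of all genes that rose there. The count of spermatocyte genes that rose was 8 with cyclic loess, 4 with median scaling and 3 with no normalization between arrays. Of 7 spermatogonial genes 6 rose, and of 13 Sertoli cell genes 10 rose and 1 fell, where 44.2% of all genes were called higher. The 6 include 1 gene detected on no wild type and no double mutant array. That gene may have passed the filter through Lhr null, where it was high, so its call carries no weight here. Without Lhr null replicate 1, 5 of 6 spermatogonial genes tested rose and 2 Sertoli cell genes fell. All 8 tested Leydig cell genes fell, with a mean level of 6.84 to 9.05 on the double mutant arrays, 5.8 to 5.95 on Lhr null and 8.36 to 10.34 on wild type arrays. Of the epididymal markers, 4 of 7 with a named probe were detected on 0 arrays, and of the 2 tested 1 fell in Lhr null. The part that cell composition has in the Adam differences was not tested.

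**Figure D5:**
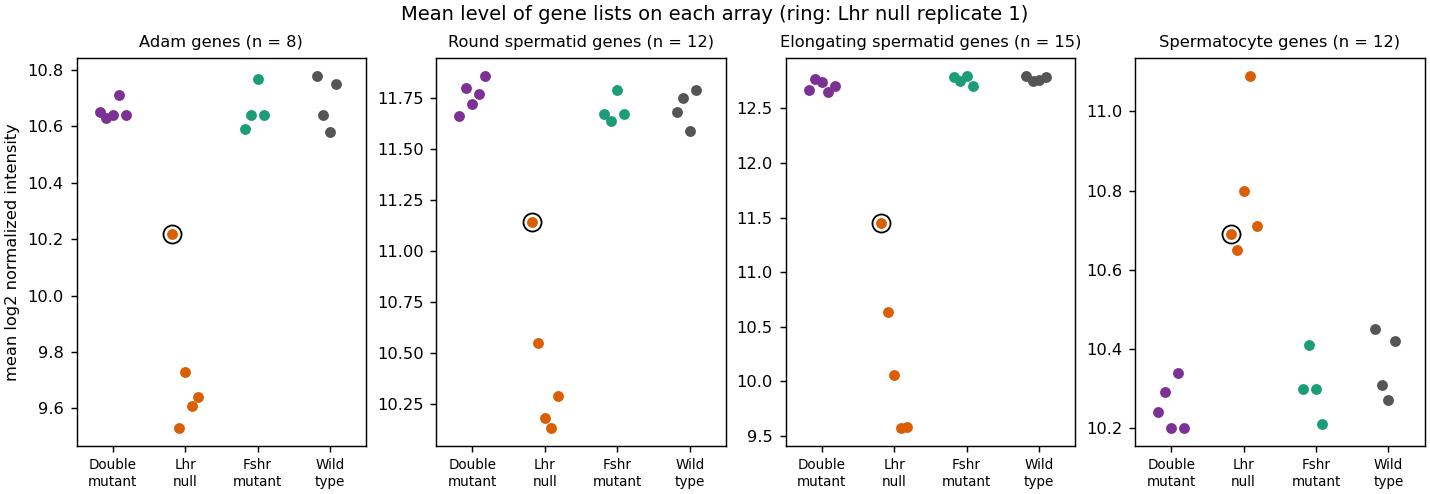
Mean log2 normalized intensity of the 8 Adam genes and of 3 lists of germ cell genes on each array, by genotype, with Lhr null replicate 1 ringed; the vertical axes differ. The Adam and both spermatid means are lowest on the Lhr null arrays, whereas the spermatocyte mean is highest there, at 10.65 to 11.09 against 10.27 to 10.45 on wild type arrays.

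The genes whose level over the 18 arrays was most like the mean of the 8 Adam genes were Mak, 4933417G07Rik, Fam20a, Triml1 and Dbil5. Their Pearson correlations with that mean were 0.99, 0.986, 0.986, 0.986 and 0.985, as a description over arrays that share their 4 genotypes and with the Lhr null arrays apart from the rest. Mak averaged 9.81 log2 in the double mutant, 8.42 in Lhr null, 9.76 in the Fshr mutant and 9.78 in wild type. Fam20a averaged 10.38 in the double mutant, 8.5 in Lhr null, 10.43 in the Fshr mutant and 10.26 in wild type.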

How the data were processed

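GenomeStudio 1.7.0 is named in the submitters' processing notes; the sources used here give no further steps and no slides. The deposited table holds, per the file headers, each probe's mean bead intensity, detection p-value, bead number and bead standard error. The authors' second deposited table, of processed intensity values, was an alternative; its scale is linear and the sources used here do not give its normalization. Intensities were corrected with normexp in limma 3.58.1 (R 4.3.3; offset 16, background from the detection p-values), quantile normalized and taken to log2. Kept probes had a detection p under 0.01 on 4 or more arrays, and the brightest probe stood for a gene. Group means of the 4 genotypes were modelled in limma over all 18 arrays together, with Benjamini-Hochberg adjustment over 10798 genes. Of 45281 probes, 34885 have 1 gene symbol, 18 several and 10378 none here. Named are all members, Fshr, the 5 most correlated genes and, per list, called genes with the largest difference of Lhr null from wild type, up to 5 for the Adam, ADAM3 maturation and gamete surface lists. Adam1b and Adam26b, close copies of members, are named outside this rule, as are 3 genes of the double mutant against the Fshr mutant, all with their values known. Members and lists were chosen with earlier results of these data known.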

Additional observations from a re-analysis of the deposited data

Results flagged for a closer look

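On Lhr null replicate 1 the Adam29 probe ILMN_1253199 had a log2 level of 8.17, further from the other Lhr null arrays than Dixon's 95% critical value allows. In all, 40 groups of arrays were examined this way, and chance marks about 1 group in 20.

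In 5 genes the double mutant minus Lhr null and Fshr mutant minus wild type differences were unequal by limma's interaction test. The interaction was 2.44 log2 for Adam29, 1.56 for Adam24, 1.53 for Adam26a, 0.61 for Adam3 and 0.55 for Adam18. Of all genes tested, 23.2% were called in the same direction.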

How the results depend on the processing

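The count of Adam genes called stayed within 1.5 times in each comparison under every alternative run. Over the 8 genes and 6 comparisons, 598 values kept their side of the threshold in the alternatives that keep all arrays, 16 came past it, 2 fell short of it and 0 called values changed sign. Adam5 and Adam32 were called lower in Lhr null with cyclic loess (-0.33 and -0.2 log2), median scaling (-0.71 and -0.67) and no normalization between arrays (-0.72 and -0.69), and Adam32 with array weights (-0.22). Adam32 in the double mutant against Lhr null lost its call when only those groups were fitted (0.23 log2, adjusted p = 0.0723). The cause was not tested. Of the calls in Lhr null against wild type, 62% were higher, and 50.6% with cyclic loess; of those in the double mutant against Lhr null, 39.4% were higher, and 27.9% with no normalization between arrays. The median of all genes in Lhr null minus wild type was 0.21 log2, and 0.02 with cyclic loess.

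Leaving out each array in turn gave 5 to 7 called members for Lhr null against wild type, 6 to 8 for the double mutant against Lhr null, 5 to 6 for the interaction and 0 to 0 for the other 3 comparisons. It gave 16 to 20 and 18 to 22 differing pairs. Over all genes it gave 7271 to 7705 calls for Lhr null, 0 to 6 for the Fshr mutant and 6 to 202 for the double mutant against wild type, 7711 to 8029 for the double mutant against Lhr null, 0 to 57 against the Fshr mutant and 6159 to 6737 for the interaction. The lowest for the double mutant against wild type was without wild type replicate 3, and the 57 without the library labelled Fshr mutant/Lhr null replicate 2.

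Calls over all genes moved by more than 1.5 times in these cases. For the double mutant against the Fshr mutant, 3 genes were called (Cldn10, Dclk3 and Ptgds, named after their values were seen), 1 with cyclic loess, 10 with no normalization, 0 with no detection filter, 5 with the mean of probes, 7 with every probe tested, 77 with array weights and 1 with only the groups compared. For the Fshr mutant against wild type, 0 genes were called, 1 with median scaling, 2 with no normalization, 6 with array weights and 3 with only the groups compared. For the double mutant against wild type, 138 were called, 844 with array weights and 228 with only the groups compared. The interaction called 6488, 4254 with no normalization and 10998 with every probe tested. With every probe tested, Lhr null against wild type called 13123 probes, where 7689 genes were called, and the double mutant against Lhr null 13845, where 8015 genes were called; more features are tested there.

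No pairing of the arrays by their shared replicate numbers was seen, in deviations from the group means. Same-numbered arrays of different groups correlated at -0.317 to 0.215 (median -0.021), and 5 of 25 pairs were over 0.1. Other-numbered arrays correlated at -0.247 to 0.297 (median -0.001), and 16 of 96 pairs were over 0.1. With the replicate block 6 members were called for Lhr null against wild type and 7 for the double mutant against Lhr null, and over all genes 21 for the double mutant against wild type and 1 against the Fshr mutant. The number of arrays and, for the 5 undetected probes, signal at background limit these results.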
